A study of Mus musculus with 30 samples.

Results

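Tumours of MMTV-PyMT mice given 5-fluorouracil (5-FU) were compared in gene expression with tumours of mice given gemcitabine, in the absence of the heme oxygenase-1 inhibitor KCL-HO-1i. The libraries were chosen by their labels alone, and comprised 5 tumours treated with 5-FU and 5 treated with gemcitabine, 10 of the 30 bulk RNA-sequencing libraries in the series. All mice were FVB/N-Tg(MMTV-PyVT)634Mul/J animals labelled WT in genotype, a strain in which a viral promoter active in mammary epithelium drives the polyoma middle T oncogene and tumours arise spontaneously, and treatment lasted 72 h in every group per the labels. Both drugs were injected intraperitoneally, with an interval of 4 days for 5-FU (40 mg/kg) and of 7 days for gemcitabine (64 mg/kg), so that drug, dose and interval cannot be told apart. The doses and the length of treatment are those of the labels, but the methods published for these tumours state a lower gemcitabine dose and a shorter exposure, and which applied is unresolved. The vehicle group (5 tumours), and the 2 groups that combined each drug with a daily dose of KCL-HO-1i (25 µmol/kg, 5 tumours each), are given where they bear on this comparison. Ages of the mice were not stated in the labels.

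Both drugs are antimetabolites. 5-FU is converted within the cell to a nucleotide that blocks thymidylate synthase (Tyms), the enzyme that makes the thymidine nucleotide for DNA, and its other products are built into RNA, where they disturb the processing of ribosomal RNA. Gemcitabine is a cytidine analogue that enters through nucleoside transporters such as Slc29a1, is phosphorylated first by deoxycytidine kinase (Dck), inhibits ribonucleotide reductase (Rrm1 and Rrm2) and stops DNA chains that take it up, while cytidine deaminase (Cda) inactivates it. The genes of DNA replication, mitosis, the damage response and ribosome production were therefore described alongside those of drug handling, together with markers of the cell types that a mammary tumour can hold.

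Depth was alike in the groups, with a total of 12.2 ± 0.653 × 1e6 counts per library for 5-FU and 11.7 ± 1.11 × 1e6 for gemcitabine (mean ± SD), a difference within the spread of the libraries (exact two-sided permutation test, p = 0.413, adjusted over 4 library measures p = 0.563, where 252 splits allow no p below 0.00794). The number of genes detected, the share of mitochondrially encoded counts and the share held by the 20 most abundant genes also gave an adjusted p of 0.563. Markers of luminal epithelium, the cell type of these tumours, were well detected, with a mean log2 CPM (counts scaled to 1e6 per library) of the 15 markers between 5.89 and 6.82 across the 10 libraries. Libraries of the same drug were about as far apart as libraries of different drugs, with a root mean square log2 difference of 0.844 within 5-FU, 0.975 within gemcitabine and 0.892 between them. The labels give each mouse a code whose number, of unstated meaning, was 76 for 5-FU replicates 1 to 3 and gemcitabine replicates 1 to 4, 69 and 74 for 5-FU replicates 4 and 5, and 86 for gemcitabine replicate 5.

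No gene passed an adjusted p of 0.05 between 5-FU and gemcitabine among 13663 tested (edgeR quasi-likelihood test, 0% called), and the smallest adjusted p was 0.752. At an unadjusted p under 0.05 there were 767 genes (5.61%), close to the share that the threshold itself allows, of which 277 were higher (2.03%) and 490 lower (3.59%) in 5-FU. DESeq2 also called 0 genes at the adjusted threshold, with a smallest adjusted p of 0.0527, and gave 902 at the unadjusted one. The limits that the study applied against vehicle, an unadjusted p under 0.05 with a log2 fold change beyond 0.6, left 252 genes (1.84%), 150 of them higher in 5-FU. The comparison could show only sizeable differences, since the 95% interval of a gene reached 0.43 to either side of its log2 fold change at the median, and 0.85 at the upper quartile. Within mouse code 76, with 3 tumours against 4, 509 genes had an unadjusted p under 0.05, and 398 of them were higher in 5-FU, so that the balance of directions was opposite to that of all 10 libraries. The smallest adjusted p within that code was 0.0784 (edgeR). The adjusted p of every gene named below was at least 0.752 in the edgeR fit of all 30 libraries. Each difference is therefore given with its standard error (SE) or 95% interval, and "called" refers to an unadjusted p under 0.05.

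Set against this background, several groups of genes leaned in 1 direction. Genes of mitosis, DNA replication, DNA repair, ribosome biogenesis and the hypoxia response were mostly lower in 5-FU than in gemcitabine tumours, and p53 targets, apoptosis regulators and heme genes lay near 0. Interferon-stimulated genes were higher in 5-FU, but their median fell from 0.74 to 0.05 without 5-FU replicate 2. Replicates of the same drug differed widely in most of these groups, and the range obtained by leaving out 1 library was wide for adipocyte, milk, muscle and red blood cell genes. Over the 10 fits that left out 1 library, 1.42% to 6.2% of all genes were called lower in 5-FU and 1.39% to 3.38% higher.

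**Figure D1:**
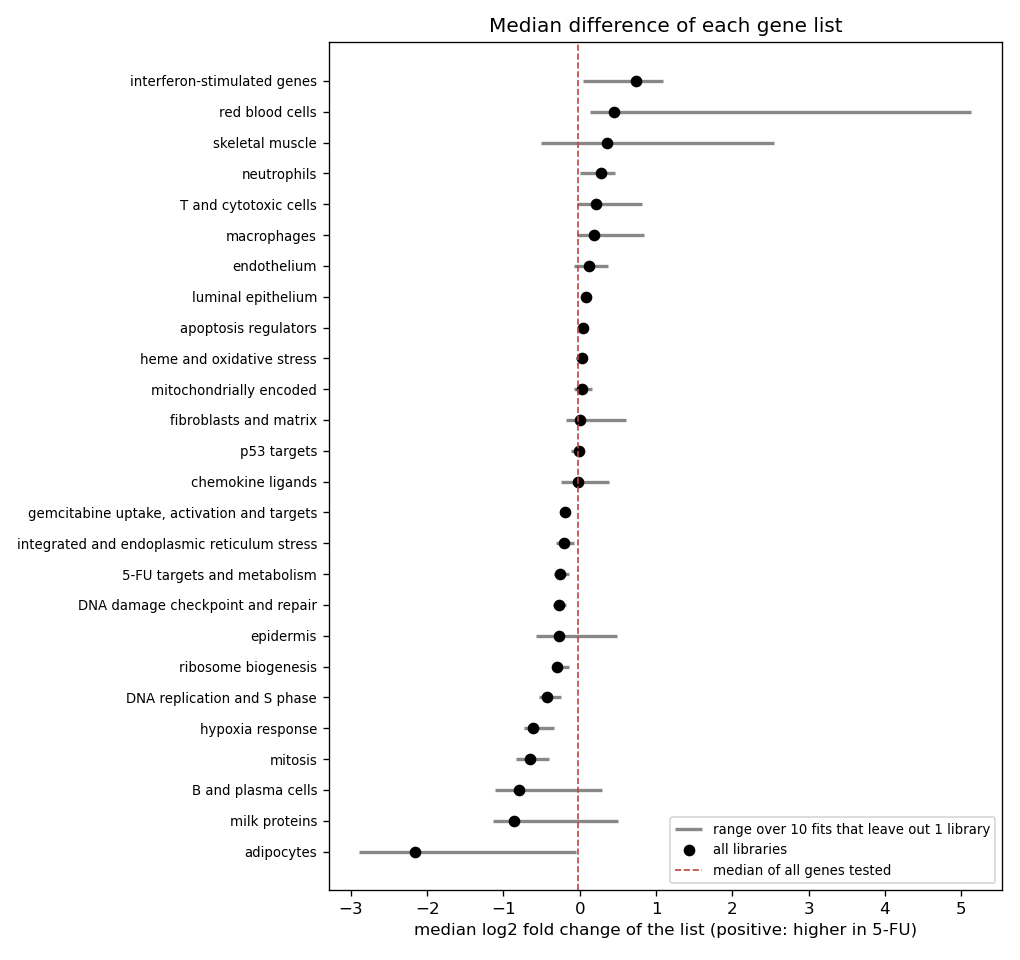
Median log2 fold change (5-FU minus gemcitabine) of the tested members of 26 gene lists, as black points, with grey bars for the range over 10 fits that each leave out 1 library and a dashed line at the median of all genes tested (-0.03). Mitosis (-0.65), hypoxia response (-0.61) and DNA replication (-0.43) stayed below 0 in every fit, whereas the medians of adipocytes (-2.16) and red blood cells (0.44) moved to -0.05 and 5.14 without gemcitabine replicate 5.

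Proliferation genes leaned lower in 5-FU tumours. Of 30 mitosis genes tested, 30 had a log2 fold change below 0 (55% of all genes tested did), with a median of -0.65 against -0.03 over all genes, and 9 had an unadjusted p under 0.05, all of them lower. Over all genes tested, 3.59% were called lower. Mki67, the standard marker of cycling cells, stood at 183, 141, 192, 129 and 46.2 CPM in 5-FU replicates 1 to 5 and at 264, 153, 477, 146 and 108 CPM in gemcitabine replicates 1 to 5. The groups overlapped, with the lowest value in 5-FU replicate 5 and the highest in gemcitabine replicates 3 and 1, and the log2 fold change was -0.73 (95% interval -1.58 to 0.12). Ube2c, the ubiquitin-conjugating enzyme of the anaphase-promoting complex, stood at 78.5, 84.9, 67.5, 68.6 and 18.5 CPM against 166, 82.6, 226, 50.4 and 70 CPM, with a log2 fold change of -0.90 (SE 0.39). Aurkb, the kinase of the chromosomal passenger complex, differed by -0.81 (SE 0.33) and Anln, the contractile ring protein anillin, by -0.78 (SE 0.34), with overlapping groups in both.

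The same libraries stood out in DNA replication. Of 41 replication genes 39 were below 0, with a median of -0.43, and 6 had an unadjusted p under 0.05, all lower in 5-FU (3.59% of all genes were called lower). The count of 6 became 1 without 5-FU replicate 5, gemcitabine replicate 1 or gemcitabine replicate 3 (1.42%, 2.3% and 1.89% of all genes were called lower). It rose to 24 without gemcitabine replicate 4 (6.2% of all genes) and to 17 without 5-FU replicate 4 (4.97%). Without 5-FU replicate 2, gemcitabine replicate 2 or gemcitabine replicate 5 it was between 10 and 14 (4.2%, 5.48% and 5.23% of all genes). Cdc45 and Gins3 are parts of the helicase that unwinds DNA at the fork. Cdc45 stood at 14.7, 16.2, 13.9, 16.4 and 5.85 CPM in 5-FU and at 29.0, 18, 31.1, 12.3 and 19.2 CPM in gemcitabine libraries, a log2 fold change of -0.71 (95% interval -1.31 to -0.11). Gins3 did not overlap between the groups, with 5.94, 5.44, 4.92, 4.97 and 3.19 CPM against 8.25, 6.51, 11.7, 6.75 and 6.66 CPM (log2 fold change -0.71, SE 0.22). The catalytic subunit of DNA polymerase epsilon, Pole, differed by -0.62 (SE 0.30), and Chaf1a, which lays down histones behind the fork, by -0.53 (SE 0.25). Zfp367, a zinc finger protein, also did not overlap, with 10.3 to 15.0 CPM in 5-FU and 17.9 to 20.9 CPM in gemcitabine libraries (log2 fold change -0.60, SE 0.16).

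**Figure D2:**
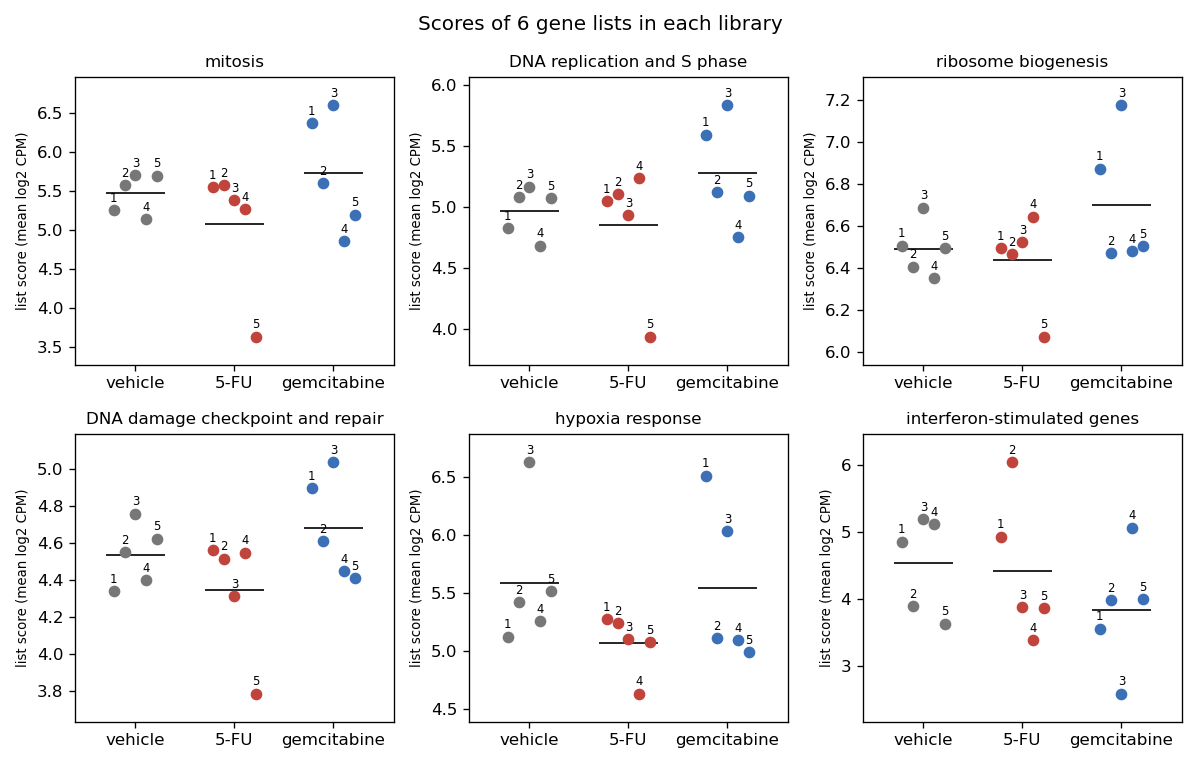
Scores of 6 gene lists, each the mean log2 CPM of the tested members of the list, in every vehicle, 5-FU and gemcitabine library. Numbers are replicates and lines are group means. 5-FU replicate 5 lay lowest for mitosis (3.64) and DNA replication (3.93), gemcitabine replicates 1 and 3 lay highest (6.37 and 6.60 for mitosis), and 5-FU replicate 2 lay highest for interferon-stimulated genes (6.05).

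Scores of the lists in each library showed where these differences lay. The mitosis score, the mean log2 CPM of the 30 genes, was 5.55, 5.57, 5.38, 5.27 and 3.64 in 5-FU replicates 1 to 5 and 6.37, 5.60, 6.60, 4.86 and 5.20 in gemcitabine replicates 1 to 5. It ran from 5.14 to 5.70 in the 5 vehicle tumours, so that 5-FU replicate 5 and gemcitabine replicate 4 lay below every vehicle tumour and gemcitabine replicates 1 and 3 above, and the other 6 libraries lay between 5.20 and 5.60. Without 5-FU replicate 5 the 9 mitosis genes with an unadjusted p under 0.05 became 0, and likewise without gemcitabine replicate 1 or without gemcitabine replicate 3, although 30 of 30 stayed below 0 in each of these fits. The count rose to 21 without gemcitabine replicate 4 (where 6.2% of all genes were called lower) and to 14 without gemcitabine replicate 5 (5.23%). The median ran from -0.40 to -0.83 over the 10 fits that left out 1 library. Within mouse code 76 the median was -0.47. Against vehicle, the median of the mitosis list was -0.27 for 5-FU and 0.38 for gemcitabine, with 0 of 30 genes at an unadjusted p under 0.05 in either (3.89% and 3.83% of all genes), and both comparisons used the same vehicle tumours.

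The contrast of the drugs in mice that also received KCL-HO-1i used 10 other libraries. There 30 of 30 mitosis genes were again below 0, with a median of -0.77, and 17 had an unadjusted p under 0.05, all lower in KCL-HO-1i/5-FU (7.79% of all genes were called in this direction, and 13.7% in either). In the replication list 41 of 41 were below 0, with a median of -0.45 and 19 called lower. Markers of other tissues differed more in the same libraries, with 17 of 17 skeletal muscle genes (median -7.39), 11 of 12 adipocyte genes (median -4.43) and 8 of 10 milk protein genes (median -2.44) called lower in KCL-HO-1i/5-FU, and their part in the values of the other lists was not tested. No gene passed the adjusted threshold in that contrast with edgeR either, whereas DESeq2 called 216 and limma-voom 235. The difference of the contrast between the backgrounds called 0 genes at the adjusted threshold (926 at an unadjusted p, 6.78%), and its median over the mitosis list was 0.11 with 0 of 30 genes at an unadjusted p under 0.05. Over all 767 genes with an unadjusted p under 0.05 without KCL-HO-1i, 66.5% had the same sign when it was given, against 56.3% of all genes tested, and the share was 73.3% for those lower and 54.5% for those higher in 5-FU.

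Genes of DNA damage checkpoints and repair followed the same order. Of 30 tested, 29 were below 0 (median -0.27) and 6 were called lower at an unadjusted p under 0.05 (3.59% of all genes were). Blm, the helicase mutated in Bloom syndrome, stood at 18.7, 14.6, 20.3, 11.6 and 7.78 CPM in 5-FU and at 27.3, 19.4, 42.7, 13.0 and 15.0 CPM in gemcitabine libraries, with a log2 fold change of -0.68 (SE 0.28). The count of 6 fell to 0 without 5-FU replicate 5 or without gemcitabine replicate 3 (1.42% and 1.89% of all genes were called lower). It was 1 without gemcitabine replicate 1 (2.3%), 2 without 5-FU replicate 3 (3.24%) and 8 without gemcitabine replicate 4 (6.2%). The p53 targets were split evenly, with 15 of 30 above 0, a median of -0.01, and 1 gene called in each direction, and without 5-FU replicate 5 only 6 of 30 were above 0 (median -0.11). With KCL-HO-1i given, 24 of 30 were above 0 with a median of 0.19, and 8 were called higher and 0 lower in KCL-HO-1i/5-FU (5.94% of all genes were called higher). The difference between the backgrounds was called in 4 of the 30, all with the larger value when KCL-HO-1i was given (4.11% of all genes were called in that direction). Trp53inp1, a p53-induced stress protein, was higher in 5-FU at 41.8, 43.4, 66.6, 52.3 and 77.7 CPM against 32.9, 35.9, 44.8, 26.2 and 32.5 CPM (log2 fold change 0.71, SE 0.30), and the nuclease Aen was lower (log2 fold change -0.56, SE 0.25).

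Cdkn1a, which encodes the cell cycle inhibitor p21 and is the best known p53 target, stood at 55.6, 68.0, 126, 48.1 and 343 CPM in 5-FU and at 77.8, 81.2, 149, 82.3 and 63.6 CPM in gemcitabine libraries. The value of 343 CPM was that of 5-FU replicate 5, the library with the lowest mitosis score. The log2 fold change was 0.50 (95% interval -0.40 to 1.39) and turned to -0.29 without that library. In mice also given KCL-HO-1i, Cdkn1a ran from 178 to 256 CPM with 5-FU and from 52.8 to 255 CPM with gemcitabine. The log2 fold change there was 0.98 (SE 0.44), called higher in KCL-HO-1i/5-FU, although the ranges overlapped. Mdm2, the p53 antagonist, varied little, from 48.0 to 65.7 CPM over the 10 libraries, with a log2 fold change of -0.06 (95% interval -0.28 to 0.17). Apoptosis regulators gave a median of 0.04, with the pro-apoptotic Bik higher in 5-FU (log2 fold change 1.22, SE 0.39) and the pro-apoptotic Bid lower (log2 fold change -0.71, SE 0.21).

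Among the lists with more than 2 tested members, ribosome biogenesis had the largest share of called members. Of 25 genes 24 were below 0, the median was -0.30, and 12 (48.0%) had an unadjusted p under 0.05, all lower in 5-FU, against 3.59% of all genes tested in that direction. Polr1b, the second largest subunit of RNA polymerase I, which transcribes ribosomal RNA, stood at 34.0, 36.2, 36.5, 39.6 and 25.5 CPM in 5-FU and at 56.0, 42.9, 69.9, 39.8 and 39.9 CPM in gemcitabine libraries, and the groups just failed to touch (39.6 and 39.8 CPM). Its log2 fold change was -0.53 (95% interval -0.82 to -0.25, adjusted p = 0.823). Nop2, a methyltransferase of the large subunit RNA, stood at 62.7, 69.8, 66.2, 68.7 and 43.6 CPM against 95.5, 59.7, 124, 71.3 and 72.22 CPM (log2 fold change -0.44, SE 0.15), and the small subunit factor Wdr43 differed by -0.33 (SE 0.12).

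Other genes of the same machinery lay outside the list. Tsr1, needed for maturation of the small subunit, had 76.35 to 82.9 CPM in the 5 5-FU libraries and 87.9 to 108 CPM in the 5 gemcitabine libraries, without overlap (log2 fold change -0.34, SE 0.09). Utp4, another small subunit processing factor, had 42.8 to 49.7 CPM against 52.4 to 89.4 CPM (log2 fold change -0.43, SE 0.12). Polr3g, a subunit of RNA polymerase III, which makes transfer RNA and 5S ribosomal RNA, had 6.90 to 8.36 CPM against 8.92 to 20 CPM (log2 fold change -0.76, SE 0.22). These 3 were named because their groups did not overlap, which was true of 72 genes in all (0.527%), 33 of them higher (0.242%) and 39 lower in 5-FU (0.285%).

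The count of 12 ribosome biogenesis genes became 3 without 5-FU replicate 5, 2 without gemcitabine replicate 3, 6 without gemcitabine replicate 1 and 18 without gemcitabine replicate 4. Of all genes, 1.42%, 1.89%, 2.3% and 6.2% were called lower in these fits. Medians of the list lay between -0.14 and -0.37 over the fits that left out 1 library and at -0.32 within mouse code 76. The score was 6.07 in 5-FU replicate 5 and 7.18 and 6.87 in gemcitabine replicates 3 and 1, and from 6.47 to 6.64 in the other 7 libraries, while vehicle tumours ran from 6.35 to 6.69. Against vehicle the list median was -0.05 for 5-FU and 0.26 for gemcitabine, with 0 and 9 of 25 genes at an unadjusted p under 0.05, the 9 all higher in gemcitabine (2.05% of all genes were called higher). With KCL-HO-1i given, the median was -0.12 and 3 of 25 genes were called lower, where 7.79% of all genes were called lower.

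Promoter sequences of these genes are shown because many ribosome biogenesis genes carry the E-box CACGTG, the element bound by Myc, Usf and Clock family proteins. In windows of 250 bases before to 50 bases after the transcription start (RefSeq, GRCm38.p6), CACGTG, which reads the same on both strands, was found in 4 of the 21 list members with a window (19%), in 11.5% of the 10701 tested genes with a window, in 8.09% of 27025 genes and in 7.15% of 32851 windows. The share was 27.3% of 22 p53 targets, 20% of 15 hypoxia genes and 18.2% of 33 replication genes, so it was not particular to ribosome biogenesis. Nor was it particular to a direction, with 13.7% of 395 genes called lower and 11.7% of 222 called higher in 5-FU. Pik3ap1 and Rab20, described below as higher in 5-FU, also carried the element. For 3 list members and for Tsr1 and Utp4 the 30 bases around the element are given 5′ to 3′ on the strand of the gene, with the element in capitals. They lie on the plus strand at chr16:13780472-13780501 (Rrn3, a polymerase I initiation factor), chr6:125131811-125131840 (Nop2), chr17:71616220-71616249 (Wdr43), chr11:74898092-74898121 (Tsr1) and chr8:106893643-106893672 (Utp4), where the element begins -215, -60, 18, 25 and 16 bases from the start.
Rrn3: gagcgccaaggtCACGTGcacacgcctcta
Nop2: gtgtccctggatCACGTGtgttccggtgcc
Wdr43: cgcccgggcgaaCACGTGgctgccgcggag
Tsr1: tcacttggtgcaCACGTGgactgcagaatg
Utp4: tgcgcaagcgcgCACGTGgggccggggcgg
A match is a run of letters in the window and not a measured binding site. The window of Rrn3 held 2 matches, of which the first is shown. Rrn3 itself stood at 47.4 to 64.8 CPM in 5-FU and 63.18 to 79.7 CPM in gemcitabine libraries (log2 fold change -0.26, SE 0.10).

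Few genes that handle the drugs were called. Of 21 genes for the targets and metabolism of 5-FU, 16 were below 0 (median -0.26), with 1 called higher and 1 called lower (2.03% and 3.59% of all genes). The count called lower rose to 6 without 5-FU replicate 4, without gemcitabine replicate 4 or without gemcitabine replicate 5 (4.97%, 6.2% and 5.23% of all genes). It was 0 without 5-FU replicate 3, 5-FU replicate 5 or gemcitabine replicate 1 (3.24%, 1.42% and 2.3% of all genes). Tyms, the target of 5-FU, stood at 19.2, 19.1, 19.3, 33.4 and 13.4 CPM in 5-FU and at 36.9, 26.4, 42.9, 17.8 and 20.4 CPM in gemcitabine libraries (log2 fold change -0.47, 95% interval -0.95 to 0.02). Thymidine kinase Tk1, which salvages thymidine, stood at 56.7, 45.0, 47.0, 34.5 and 24.4 CPM against 98.1, 72.7, 82.7, 53.6 and 38.3 CPM (log2 fold change -0.73, 95% interval -1.52 to 0.06). Both are also genes of S phase, and in both the gemcitabine values were highest in replicates 1 and 3. Upp1, uridine phosphorylase, differed by -0.42 (95% interval -1.25 to 0.42), and Shmt2, the mitochondrial enzyme that supplies 1-carbon units from serine, by -0.33 (SE 0.16).

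Dpyd, the enzyme that degrades 5-FU, had the largest difference of the drug genes, with a log2 fold change of 1.87 (95% interval 0.41 to 3.33, adjusted p = 0.823). It rested on 1 library, since 5-FU replicate 4 stood at 71.7 CPM and the other 4 5-FU libraries at 8.36, 6.98, 9.26 and 11 CPM, while gemcitabine libraries stood at 0.408, 11.3, 7.60, 7.37 and 2.58 CPM. Without 5-FU replicate 4 the log2 fold change was 0.60. The same library held 1075, 1039 and 343 CPM of the major urinary protein genes Mup4, Mup5 and Mup6, against at most 5.90 CPM in any of the other 9 libraries, and 923 CPM of the ameloblast gene Amtn, against at most 15.5 CPM. Reads of Mup genes can be shared between near-identical copies, so the split among them is uncertain.

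For gemcitabine, 16 of 23 genes of uptake, activation and targets were below 0 (median -0.20) and 2 were called lower (3.59% of all genes were). The count of 2 became 0 without 5-FU replicate 5, gemcitabine replicate 1 or gemcitabine replicate 3. Rrm1, the large subunit of ribonucleotide reductase, stood at 143, 134, 159, 134 and 70.5 CPM in 5-FU and at 203, 146, 276, 106 and 121 CPM in gemcitabine libraries (log2 fold change -0.41, 95% interval -0.90 to 0.08). Rrm2, its partner in S phase, differed by -0.59 (95% interval -1.48 to 0.30), and the p53-induced subunit Rrm2b by 0.15 (95% interval -0.19 to 0.49). Dck stood at 45.1, 46.7, 38.9, 49.9 and 31.0 CPM against 57.4, 54.1, 45.8, 47.6 and 47.8 CPM, a narrow interval around -0.26 (-0.56 to 0.05). The transporter Slc29a1 differed by -0.34 (95% interval -0.88 to 0.19) and Cda by -0.64 (95% interval -1.73 to 0.45), while the related transporter Slc29a2 was the gene of this list with the smallest p (log2 fold change -0.60, SE 0.23).

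**Figure D3:**
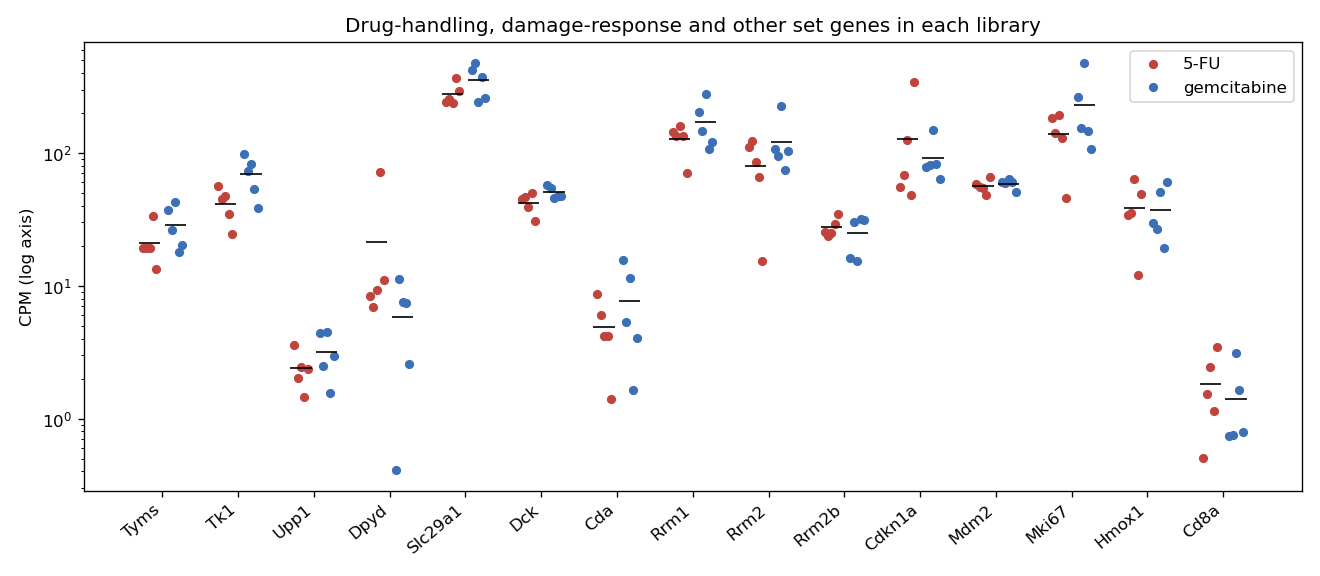
Expression of 15 genes named whatever their values, in CPM on a log axis, with red points for 5-FU and blue points for gemcitabine libraries in the order of replicates 1 to 5 and lines at the group means. The groups overlapped for every gene, and single libraries set the highest values of Dpyd (71.7 CPM in 5-FU replicate 4) and Cdkn1a (343 CPM in 5-FU replicate 5).

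Ranking by p among genes whose libraries did not overlap gave 12 genes in each direction, none past the adjusted threshold. Their separation is a consequence of the rule and was not counted as evidence. Pik3ap1, the adaptor that links receptors of B cells and myeloid cells to phosphoinositide 3-kinase, stood at 66.7, 76.9, 58.3, 51.7 and 68.8 CPM in 5-FU and at 20.5, 30.6, 32.1, 26.5 and 39.8 CPM in gemcitabine libraries (log2 fold change 1.11, 95% interval 0.56 to 1.65, adjusted p = 0.772). Vehicle tumours averaged 34.1 ± 9.1 CPM (SD, 5 tumours). In the independent libraries with KCL-HO-1i it was again higher with 5-FU (log2 fold change 0.84, SE 0.26), and it was the only one of the 12 higher genes with an unadjusted p under 0.05 there.

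Nr1d2 and Dbp, transcription factors whose levels follow the circadian clock, were also higher in 5-FU. Dbp stood at 11.7, 11.4, 14.8, 24.4 and 48.8 CPM in 5-FU and at 4.00, 5.34, 9.89, 4.11 and 6.85 CPM in gemcitabine libraries (log2 fold change 1.88, SE 0.50). Nr1d2 stood at 66.0, 69.5, 70.7, 70.3 and 106 CPM against 46.0, 55.5, 38.6, 36.0 and 54.5 CPM (log2 fold change 0.73, SE 0.17). Vehicle tumours averaged 15.3 ± 8.66 CPM of Dbp and 64.8 ± 15.2 CPM of Nr1d2 (mean ± SD), means closer to those of the 5-FU libraries. Single vehicle tumours ran from 5.16 to 22.8 CPM of Dbp and from 45.1 to 82.8 CPM of Nr1d2. Both ranges reached into that of the gemcitabine libraries. The time of day at which tumours were taken is not given in the sources used here, and its part in these differences was not tested.

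Other genes higher in 5-FU were expressed at low levels or differed by little. The homeobox gene Otx1 (log2 fold change 3.34, SE 0.95) and the potassium channel Kcnj16 (log2 fold change 3.06, SE 0.88) were at or below 1.32 CPM in all gemcitabine libraries, where 3 reads corresponded to 0.222 to 0.298 CPM over the 10 libraries. Cyp2d10, which belongs to a family of similar genes, differed by 1.77 (SE 0.57), the ectoenzyme Cd38 by 0.95 (SE 0.33) and the small GTPase Rab20 by 0.58 (SE 0.20). Erich1, Prorsd1, Ube2h, a ubiquitin-conjugating enzyme, and Brd2, a chromatin reader, differed by between 0.25 and 0.48.

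Ttf2, a factor that releases RNA polymerase II from DNA, had the smallest p of all genes. It stood at 22.1, 19.6, 17.1, 15.9 and 15.6 CPM in 5-FU and at 28.2, 23.3, 28.4, 25.8 and 23.2 CPM in gemcitabine libraries, with vehicle between at 22.2 ± 2.3 CPM (SD, 5 tumours). The log2 fold change was -0.51 (95% interval -0.74 to -0.29, adjusted p = 0.752), and with KCL-HO-1i given it was 0.03 (SE 0.11). Other lower genes were the coactivator Rbm14 (-0.61, SE 0.17), the exoribonuclease Eri1 (-0.44, SE 0.13), Spata5 (-0.45, SE 0.13), the transporter Slc10a7 (-0.40, SE 0.12) and the splicing factor Sf1 (-0.33, SE 0.10). With KCL-HO-1i given, 9 of the 12 higher and 8 of the 12 lower genes had the same sign.

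**Figure D4:**
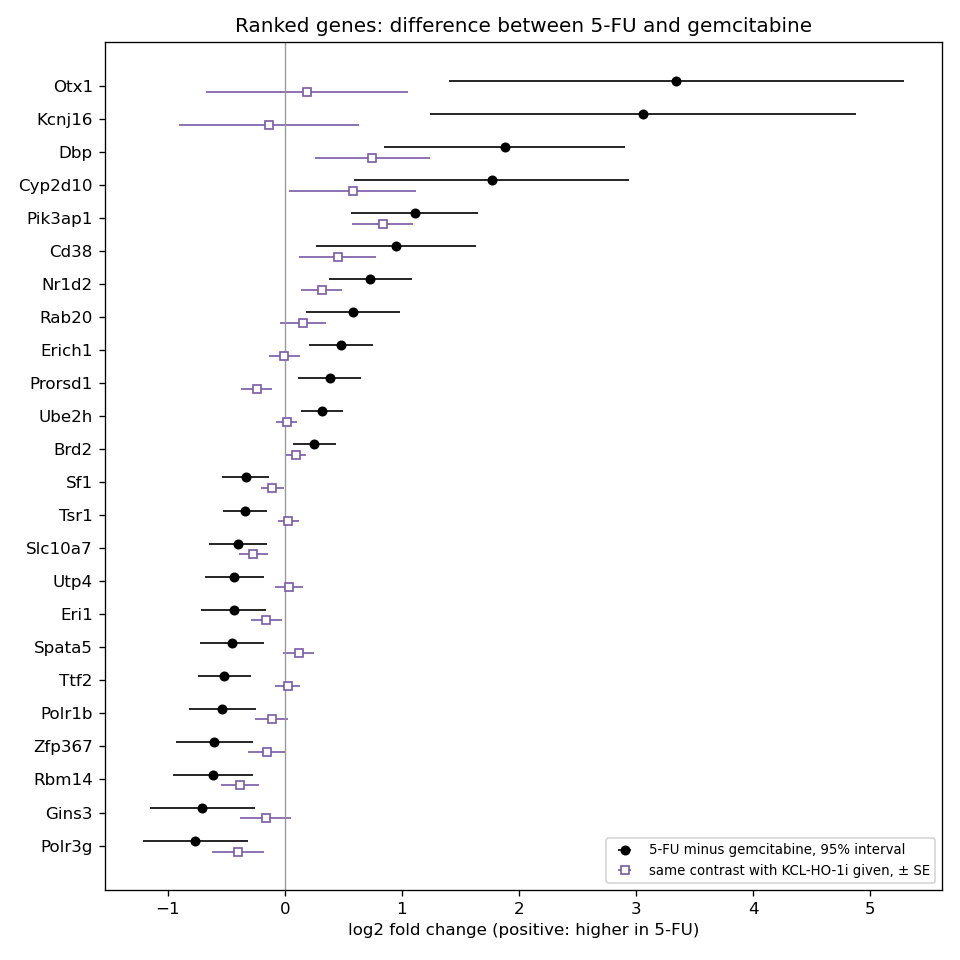
Log2 fold changes of the 24 ranked genes, with black points for 5-FU minus gemcitabine and their 95% intervals and open squares for the same contrast in mice given KCL-HO-1i with their standard errors. The black points exclude 0 because the genes were ranked on this contrast, while most squares lie closer to 0, with Pik3ap1 at 1.11 and 0.84 and Ttf2 at -0.51 and 0.03.

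Of 20 genes of the integrated and endoplasmic reticulum stress responses 14 were below 0 (median -0.20) and 5 were called lower (3.59% of all genes were called lower). The 5 were Hspa5, Hsp90b1, Calr, Pdia4 and Creld2, which encode chaperones of the endoplasmic reticulum or proteins that act with them. Hspa5, the main chaperone of the compartment, stood at 1398, 1224, 1115, 580 and 769 CPM in 5-FU and at 1812, 1408, 1448, 1168 and 1296 CPM in gemcitabine libraries (log2 fold change -0.49, SE 0.19), with the low values in 5-FU replicates 4 and 5. Creld2 differed by -0.52 (SE 0.21) and Pdia4 by -0.34 (SE 0.15), whereas Atf3, Ddit3 and Asns had log2 fold changes of 0.07, 0.12 and -0.03. The 5 calls became 0 without 5-FU replicate 4 or without 5-FU replicate 5, 1 without gemcitabine replicate 1 and 2 without gemcitabine replicate 3, and with KCL-HO-1i given the list median was 0.06.

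The hypoxia response was lower in 5-FU in 14 of 16 genes (median -0.61), of which 2 were called (3.59% of all genes were called lower). Adm, adrenomedullin, stood at 8.11, 4.63, 4.67, 2.36 and 5.56 CPM in 5-FU and at 110, 6.26, 37.1, 2.56 and 10.4 CPM in gemcitabine libraries (log2 fold change -2.71, 95% interval -4.50 to -0.93). Vegfa, the main angiogenic growth factor, stood at 46.3, 40.2, 24.8, 11.3 and 42.6 CPM against 253, 33.9, 111, 43.8 and 26.8 CPM (log2 fold change -1.50, SE 0.69). In both genes gemcitabine replicates 1 and 3, the libraries with the highest mitosis scores, held the highest values, and the other gemcitabine libraries lay in or near the 5-FU range. The glucose transporter Slc2a1 differed by -0.54 (SE 0.28). Against vehicle, 15 of the 16 genes were below 0 in 5-FU (median -0.61, 5 called lower, against 2.24% of all genes), while in gemcitabine the median was -0.08 with 0 called, and both comparisons used the same vehicle tumours. Vehicle replicate 3 held 272 CPM of Vegfa and 50.5 CPM of Adm, against at most 63.7 and 15.0 CPM in the other vehicle tumours. No fit left that library out. Without gemcitabine replicate 1 the 2 calls became 0 (2.3% of all genes were called lower) and the median -0.33. There was 1 call without 5-FU replicate 3 or gemcitabine replicate 3 (3.24% and 1.89% of all genes) and 4 without gemcitabine replicate 5 (5.23%). With KCL-HO-1i given the median was -0.11.

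Interferon-stimulated genes were above 0 in 22 of 22 tested (45% of all genes were), with a median of 0.74, but 0 had an unadjusted p under 0.05. In the fit without gemcitabine replicate 4 there were 4, all higher in 5-FU (3.38% of all genes were called higher). The score was 4.93, 6.05, 3.88, 3.39 and 3.86 in 5-FU and 3.56, 3.98, 2.59, 5.07 and 4.00 in gemcitabine libraries, which overlapped broadly. Oas2, a sensor of double-stranded RNA, stood at 19.7, 104, 2.13, 0.570 and 1.70 CPM against 3.76, 4.59, 2.56, 21.2 and 8.44 CPM, and its log2 fold change of 1.66 (SE 1.06) turned to -0.44 without 5-FU replicate 2. Without that library the median of the list was 0.05 and 8 of the 22 genes were below 0. Zbp1, a nucleic acid sensor, differed by 0.80 (SE 0.44) and the interferon-gamma chemokine Cxcl9 by 1.33 (SE 0.84).

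Cytotoxic lymphocyte transcripts were low in all tumours. In bulk tissue, fewer cells of a type and less RNA per cell cannot be told apart. Of 12 T and cytotoxic cell genes tested, of 21 listed, 2 were called, both higher in 5-FU (2.03% of all genes were called higher), and the median was 0.22. The median ran from -0.04 without 5-FU replicate 5 to 0.82 without gemcitabine replicate 3. In the latter fit 12 of 12 were above 0 and 3 were called (1.64% of all genes were called higher). Only 1 was called without 5-FU replicate 4 (1.85% of all genes were called higher). The granzyme gene Gzmb stood at 1.17, 4.46, 6.31, 13.6 and 10 CPM in 5-FU and at 3.02, 2.09, 1.37, 5.28 and 1.39 CPM in gemcitabine libraries (log2 fold change 1.43, 95% interval 0.30 to 2.56). Gzma stood at 0.0836, 1.14, 3.11, 1.47 and 2.07 CPM against 0 to 0.233 CPM, where every gemcitabine library held 0 to 3 reads (log2 fold change 3.83, SE 1.19). Cd8a, a subunit of the co-receptor of cytotoxic T cells, differed by 0.38 (95% interval -0.91 to 1.67) and Cd3d, Cd3e and Cd3g by -0.33, -0.26 and -0.02. With KCL-HO-1i given, the log2 fold change of Gzma was -1.70 and that of Gzmb 0.20. The lymphocyte chemokine Xcl1 was the 1 called gene of 25 chemokine ligands (log2 fold change 1.29, SE 0.55), and 5-FU replicate 4 held 4.64 CPM of it against at most 1.46 CPM in the other 9 libraries.

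Macrophage markers gave a median of 0.19, with 12 of 20 above 0 and 0 called. Aif1, which encodes the macrophage marker Iba1, stood at 10.9, 11.7, 19.3, 11.3 and 18.1 CPM in 5-FU and at 5.14, 9.02, 5.95, 6.36 and 15.9 CPM in gemcitabine libraries (log2 fold change 0.75, SE 0.38). The list score was 3.90, 3.63, 3.93, 2.12 and 3.52 against 2.21, 3.43, 2.61, 2.59 and 4.65, lowest in 5-FU replicate 4 and highest in gemcitabine replicate 5. Without gemcitabine replicate 5 the median was 0.84 and 7 of 20 genes were called, all higher in 5-FU (2.56% of all genes were called higher in that fit). Hmox1, the heme-degrading enzyme that KCL-HO-1i inhibits, stood at 33.9, 35.2, 63.9, 12.1 and 48.9 CPM against 29.8, 26.6, 50.4, 19.3 and 60.3 CPM (log2 fold change 0.06, 95% interval -1.24 to 1.35), and 0 of 18 genes of heme handling and oxidative stress were called. Endothelial (median 0.12), fibroblast (0.01), neutrophil (0.28), luminal (0.09) and mitochondrially encoded genes (0.02) also had 0 called members. Of the B and plasma cell list only Cd22 and Jchain passed the filter, and Jchain was lower in 5-FU (log2 fold change -2.97, SE 1.20) with at most 3.30 CPM in any library.

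Markers of fat, milk secretion, muscle and epidermis moved with single libraries, and the tissue their reads came from was not tested. All 12 adipocyte genes were below 0 with a median of -2.16 and 1 called, but Plin4, a coat protein of fat droplets, stood at 0.490, 7.60, 1.37, 0.931 and 125 CPM in gemcitabine replicates 1 to 5 and between 0.407 and 7.03 CPM in 5-FU libraries. The fat hormone Lep reached 23.3 CPM in gemcitabine replicate 5 and at most 1.09 CPM in the other 9 libraries. The milk protein Glycam1 was likewise highest in gemcitabine replicate 5 (130 CPM) and the epidermal keratin Krt1 in gemcitabine replicate 3 (14.1 CPM, at most 1.14 CPM in the other 9 libraries). The list medians of skeletal muscle (0.35), epidermis (-0.28) and milk proteins (-0.86) each changed sign when 1 library was left out, and 0 of their members were called. The muscle median became -0.51 without 5-FU replicate 5 and 2.55 without gemcitabine replicate 2, the epidermal median 0.49 without gemcitabine replicate 3 and the milk protein median 0.51 without gemcitabine replicate 5.

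Haemoglobin genes were low in 4 of the 5 gemcitabine tumours and high in the other one. Of 5 red blood cell genes tested 4 were above 0 with a median of 0.44 and 0 called, and without gemcitabine replicate 5 the median was 5.14 with 3 called, all higher in 5-FU. In that fit 2.56% of all genes were called higher. Hba-a1, a haemoglobin alpha chain gene (chromosome 11), stood at 59.2, 147, 104, 165 and 54.7 CPM in 5-FU replicates 1 to 5, and at 3.18, 9.52, 4.12, 1.09 and 373 CPM in gemcitabine replicates 1 to 5. Hbb-bs, a beta chain gene named after its values were seen, stood at 43.1, 88.5, 48.9, 129 and 39.9 CPM against 1.22, 3.26, 2.56, 0.931 and 262 CPM. In both genes the 4 gemcitabine libraries of mouse code 76 lay below all 5-FU libraries and gemcitabine replicate 5, of code 86, lay above them. Vehicle tumours ran from 47.8 to 253 CPM of Hba-a1.

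With all libraries the log2 fold change of Hba-a1 was 0.44 (95% interval -1.66 to 2.55). Without gemcitabine replicate 5 it was 4.57 (edgeR adjusted p = 0.152), within mouse code 76 it was 4.55 (adjusted p = 0.155), and with the mouse code as a covariate 4.53 (adjusted p = 0.0200), while over the other settings the adjusted p was at least 0.926. The covariate fit called 3 genes at the adjusted threshold, Hba-a1, Hbb-bs and Hbb-bt, with Hbb-bs at 4.92 (adjusted p = 0.00760) and Hbb-bt at 6.81 (adjusted p = 0.0434). Gemcitabine replicate 5 is the only library of the series with code 86. In the covariate fit it therefore carries no weight in the contrast, much as in the fit that leaves it out. With KCL-HO-1i given, Hba-a1 ran from 22.7 to 278 CPM with 5-FU and from 2.49 to 58.0 CPM with gemcitabine (log2 fold change 1.69), and Hbb-bs from 18.5 to 260 CPM and from 0.904 to 25.4 CPM (log2 fold change 2.53). Alas2, the enzyme that starts heme synthesis in red cell precursors, stood at 1.19 to 3.83 CPM in 5-FU and at 0, 0.918, 0.275, 2.02 and 4.97 CPM in gemcitabine libraries, where replicate 4 lay within the 5-FU range. Slc4a1, Ahsp and Epb42, other genes of red cells, did not pass the filter. The haemoglobin genes have near-identical copies, so the split of reads between copies is uncertain, and the amount of blood in each sample was not measured.

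**Figure D5:**
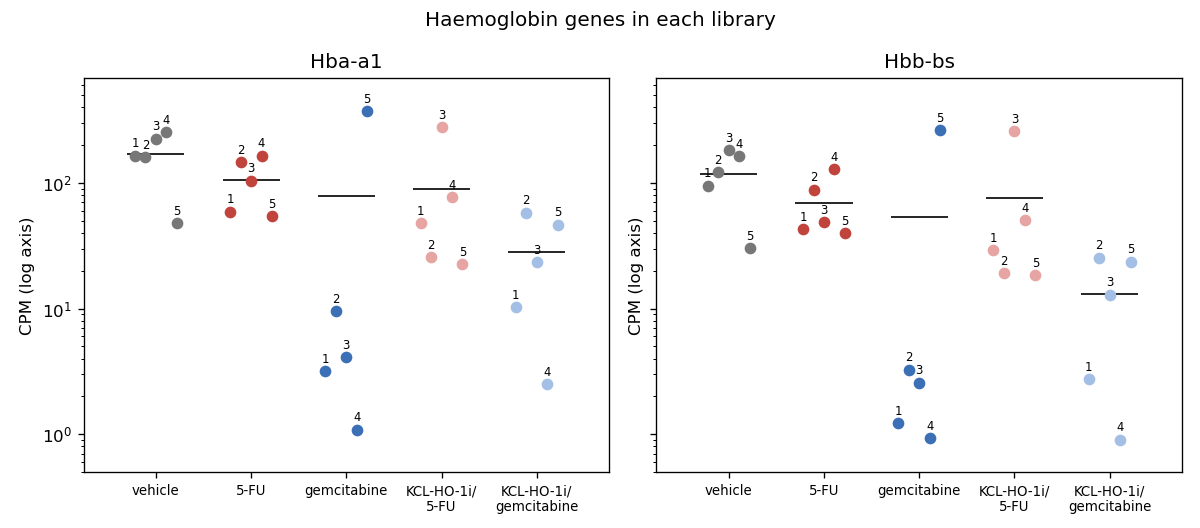
Hba-a1 and Hbb-bs in CPM on a log axis in every library of 5 groups, with replicate numbers and lines at the group means. Gemcitabine replicates 1 to 4 lay between 1.09 and 9.52 CPM of Hba-a1, below all vehicle and 5-FU libraries, and gemcitabine replicate 5 lay highest at 373 CPM.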

How the data were processed

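RNA was extracted from tumours and sequenced with a stranded kit. Per the submitters' processing notes, the authors checked reads with FastQC 0.11.9, aligned with STAR 2.7.9a, quantified with Salmon 1.9.0 and used DESeq2, on genome mm10. The annotation release is not given in the sources used here. The deposited values are expected counts per gene, estimated by the authors and not scaled (38.0% are not whole), which were rounded here. Of 21841 gene symbols, 20992 matched RefSeq GRCm38.p6, the source of coordinates.

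Genes passing filterByExpr of edgeR 4.0.16 (R 4.3.3, minimum count 10) were tested with TMM scaling and the two-sided quasi-likelihood test over 6 group means and all 30 libraries, with Benjamini-Hochberg adjustment at 0.05. Genes left out held 0.0565% of counts. CPM are per effective library size, and a floor of 3 reads covers counting error only. Log2 CPM used a prior count of 2. Named were 15 genes whatever their values, up to 12 in each direction by p among genes without overlap and a mean of at least 1 CPM, and up to 3 by p in each of 26 lists. The members and lists were chosen with earlier results of these data known, and other genes after their values were seen. Libraries are single tumours of separate mice. Duplicate libraries were checked by a chi-square of counts (at least 20.0 per degree of freedom over 20 pairs). The scripts were tested on simulated data. Alternatives were RLE scaling, DESeq2 1.42.0, limma-voom (limma 3.58.1) with sample weights, other filters, fewer libraries, the mouse code and a replicate block. Several were applied to lists after seeing the data. 1 list member is not reported here.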

Additional observations from a re-analysis of the deposited data

Results flagged for a closer look

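Dixon's test at the 95% level was applied to 232 groups of 5 libraries (library measures, list scores and named genes). In 39 (16.8%) 1 library lay apart from the other 4. The share is a description, since some of these genes were named after their values were seen and genes of a list are not independent. The test assumes normal values and CPM were not put on a log scale, so its level does not give the share to expect here. Of the 39 flags, 10 fell on gemcitabine replicate 5, 9 on 5-FU replicate 4 and 9 on 5-FU replicate 5.

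5-FU replicate 5 was lowest for the scores of DNA replication (3.93) and mitosis (3.64), for Rrm1 (70.5 CPM), Pole (4.37 CPM), Cdc45 (5.85 CPM), Ube2c (18.5 CPM) and Nop2 (43.6 CPM), and highest for Cdkn1a (343 CPM) and Nr1d2 (106 CPM). 5-FU replicate 4 was lowest for the scores of apoptosis regulators (5.19), macrophages (2.12) and luminal epithelium (5.89), and highest for Dpyd (71.7 CPM), Xcl1 (4.64 CPM), Mup4 (1075 CPM), Mup5 (1039 CPM), Mup6 (343 CPM) and Amtn (923 CPM). Among the other 5-FU libraries, replicate 1 was lowest for the T and cytotoxic score (-0.069), replicate 2 highest for Oas2 (104 CPM) and replicate 3 highest for Glycam1 (13.5 CPM).

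Gemcitabine replicate 5 was highest for the endothelium (3.80) and red blood cell (5.66) scores, Kcnj16 (0.397 CPM), Lep (23.3 CPM), Plin4 (125 CPM), Adrb3 (18.7 CPM), Glycam1 (130 CPM), Hba-a1 (373 CPM), Hbb-bs (262 CPM) and Hbb-bt (13.0 CPM). Replicate 3 was highest for Rrm2 (226 CPM), Cdkn1a (149 CPM), Aen (128 CPM) and Krt1 (14.1 CPM) and lowest for Cd38 (1.46 CPM), replicate 4 highest for Mup4 (3.41 CPM) and Mup6 (5.90 CPM), and replicate 1 highest for Pole (24.0 CPM).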

How the results depend on the processing

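The number of genes past the adjusted threshold was 0 in every setting except the mouse code covariate (3). In that fit gemcitabine replicate 5 is alone in its code and carries no weight in the contrast. The 767 genes at an unadjusted p under 0.05 became 496 with limma-voom, 341 with only the 10 libraries, 504 with the mouse code covariate and 509 within mouse code 76, and 401 to 1309 with 1 library left out (401 without 5-FU replicate 5, 482 without gemcitabine replicate 3, 504 without gemcitabine replicate 1 and 1309 without gemcitabine replicate 4). The share higher in 5-FU, 277 of 767, was 172 of 341, 306 of 504, 398 of 509 and, without 5-FU replicate 5, 207 of 401 in these fits. The 252 genes past the limits of the study became 471 without a filter, 159 at a mean of at least 50 counts, 151 with only the 10 libraries, 408 within mouse code 76 and 183 to 512 with 1 library left out. With KCL-HO-1i given, DESeq2 called 216 and limma-voom 235 genes where edgeR called 0, and DESeq2 called 4 for the difference between backgrounds. The cause of these changes was not tested, and some of these fits also used fewer libraries. No setting moved the median of all genes by more than 0.02 on the log2 scale.

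Among named genes the sign turned for Cda (0.10), Rrm2b (-0.10) and Glycam1 (1.36) with limma-voom. With the mouse code covariate it turned for Cdkn1a (-0.23), Cd8a (-0.048), Lep (0.38), Plin4 (0.60) and Mup6 (-0.74), and within mouse code 76 for Cdkn1a (-0.21), Cd8a (-0.027) and Plin4 (0.61). With 1 library left out it turned for Cdkn1a (range -0.29 to 0.75), Oas2 (-0.44 to 2.41), Plin4 (-3.26 to 0.47), Krt1 (-3.87 to 0.59), Mup6 (-0.54 to 7.73) and Hmox1 (-0.19 to 0.30, below 0 in 5 of 10 fits). The replicate number as a block gave 703 genes at an unadjusted p and 0 adjusted, and turned Hmox1 (-0.0053). Residual correlations of same-numbered libraries ran from -0.07 to 0.17 (4 of 5 above 0 and 3 above 0.1, against a mean of -0.024 for other numbers), and 2 of 5 5-FU libraries matched their own number best, so pairing was not clear in every pair and the numbers were not used as pairs.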

Other observations

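Clock genes were looked at beyond Dbp and Nr1d2, after their values were seen. Of the 17 other genes of the circadian clock and its outputs, 3 had an unadjusted p under 0.05, all higher in 5-FU, where 2.03% of all genes were called in that direction. Since the list was drawn up because of Dbp and Nr1d2, this count is a description. With those genes, 12 of 19 were above 0 and 7 below. Per2, a repressor of the clock, stood at 24.3, 19.6, 25.5, 16.3 and 21.8 CPM in 5-FU and at 8.65, 16.2, 7.97, 16.0 and 11.6 CPM in gemcitabine libraries (log2 fold change 0.83, SE 0.35). Tef, a relative of Dbp, differed by 1.13 (SE 0.34) and Per3 by 0.88 (SE 0.31), with overlapping groups. The activators Arntl, Clock and Npas2 had log2 fold changes of -0.21, -0.29 and -0.59, the opposite sign, with none at an unadjusted p under 0.05. Against vehicle, Dbp, Tef, Per2 and Per3 differed by -1.34, -1.12, -1.27 and -0.86 in gemcitabine and by 0.54, 0.01, -0.44 and 0.02 in 5-FU tumours, 2 comparisons that share the vehicle libraries. With KCL-HO-1i given, the log2 fold changes between the drugs were 0.75, 0.61, 0.43 and 0.62, none at an unadjusted p under 0.05.

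Expression along chromosomes, given relative to the mean of the 10 libraries, was raised in blocks of neighbouring genes in some tumours of either drug. In 5-FU replicate 2 the 129 tested genes at the distal end of chromosome 5 had a median of 0.90 on the log2 scale above that mean, and in gemcitabine replicate 4 the 138 genes at the distal end of chromosome 11 had 0.75. The 10 blocks along chromosome 7 had medians from 0.21 to 0.58 in gemcitabine replicate 3 and from 0.22 to 0.32 in 5-FU replicate 3. DNA copy number was not measured.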
